A study of Homo sapiens with 27 samples.

Results

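MALAT1 (ENSG00000251562) and NEAT1 (ENSG00000245532) are the 2 long non-coding RNAs (lncRNAs) described here, taken by their Ensembl gene IDs from a table of 34464 genes. Both passed the minimum mean level and were among 14611 genes tested, of which 1689 are lncRNA genes. Their levels came from RNA Frac-Seq of U2OS cells, a human osteosarcoma line, in which poly(A)+ RNA was sequenced separately from the nuclear fraction, from the cytoplasmic/ER fraction (cytosol with endoplasmic reticulum, released by detergent) and from unfractionated cells (total, 10% of the cells set aside beforehand). All cultures had received a lentiviral shRNA, with selection in puromycin, either a scrambled control or 1 of 2 shRNAs against TPR, called TPR A and TPR D, and were collected after 5 days. TPR is a protein of the nuclear pore basket, and the question of the study was which transcripts change their nucleocytoplasmic distribution when it is depleted. The 3 shRNAs and 3 fractions give 9 groups of 3 libraries (27 libraries, taken as 9 cultures by shRNA and replicate number, which the labels do not state). All of them are of a single cell line.

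MALAT1 and NEAT1 are abundant RNAs that stay in the nucleus. MALAT1 accumulates in nuclear speckles, bodies rich in splicing factors and poly(A)+ RNA, whereas NEAT1 is the scaffold on which paraspeckles are built. Long MALAT1 and the long isoform of NEAT1 are not cleaved and polyadenylated in the usual way: RNase P cuts upstream of a tRNA-like structure, and the new 3' end is protected by a triple helix in which an A-rich tract pairs with U-rich motifs. The short NEAT1 isoform ends at an ordinary poly(A) site.

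Both genes lie on the plus strand of chromosome 11 (GRCh37, the build that hg19 also names), with 52.1 kb between them. NEAT1 spans chr11:65190245-65213011 (22767 bases) and MALAT1 spans chr11:65265111-65275544 (10434 bases). In GENCODE release 44, placed on GRCh37, NEAT1 has 9 transcripts of 512 to 22743 bases and MALAT1 has 66 of 282 to 10434 bases, and each gene has 1 single-exon transcript, which is its longest. The deposited values are sums over the transcripts of a gene, so the short and the long NEAT1 cannot be told apart. The lncRNA ENSG00000270117 (chr11:65265479-65266088) and TALAM1 (chr11:65266783-65274903) overlap MALAT1 on the other strand. ENSG00000270117 fell below the minimum level and TALAM1 was not analysed here. The library kit keeps strand, but the strand setting of the counting was not given in the sources used here.

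The 3' ends are shown because they differ from those of ordinary poly(A)+ transcripts, which is what the libraries were selected for. The letters are the GRCh37 plus strand, 137 bases each, from chr11:65273472-65273608 for MALAT1 and from chr11:65212896-65213032 for NEAT1, both exonic in the long transcript up to its annotated end. Capitals mark, from left to right, a first U-rich motif (TTTCTTTT), a second (TTTTGCTTTT), the A-rich tract (AAAAAGCAAAA) and a string near the start of the tRNA-like part (GCTGGTGG). The lower-case bases between the tract and GCTGGTGG lie past the annotated end of the long NEAT1 transcript.
MALAT1: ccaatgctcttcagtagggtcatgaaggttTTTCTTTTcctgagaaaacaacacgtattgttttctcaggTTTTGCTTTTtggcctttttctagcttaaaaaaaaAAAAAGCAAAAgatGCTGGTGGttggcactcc
NEAT1: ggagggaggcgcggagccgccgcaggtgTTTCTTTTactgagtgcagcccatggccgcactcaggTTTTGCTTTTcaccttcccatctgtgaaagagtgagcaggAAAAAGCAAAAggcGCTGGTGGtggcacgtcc
All 4 strings occur in the same order in both. The stretches were located by the A-rich tract followed closely by GCTGGTGG, so the presence and order of that pair were set by the search. The A-rich tract of MALAT1 is preceded by further A, giving a run of 13 A before the GC, against 5 in NEAT1, and this is the only run of 10 or more A in the MALAT1 gene. NEAT1 has 5 such runs elsewhere, the longest of 22. The tract ends at the annotated end of the long NEAT1 transcript, and 1957 bases before that of the long MALAT1 transcript. Among 957145 windows of 137 bases laid end to end over chromosome 11 and read on both strands, 5.39% hold TTTCTTTT, 0.31% TTTTGCTTTT, 0.114% AAAAAGCAAAA and 0.623% GCTGGTGG, and 0 hold all 4 on 1 strand (the stretches of the members themselves are split between such windows). Stretches that cross a window border are missed, so the 0 does not measure how rare the set of 4 is.

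TPR mRNA was checked first. It was at 25.3 to 31.9 FPKM (fragments per kilobase of transcript, scaled to the reads of the library) in the 6 control nuclear and total libraries and at 1.64 to 6.01 in the 12 depleted ones, and the log2 difference of the TPR shRNAs from control in the nuclear fraction was -3.66 (SE 0.31, limma adjusted p = 7.33e-07). Of the mesenchymal markers, VIM, SPARC, COL1A1 and RUNX2 were present (medians of 1104, 445, 40.5 and 17.8 FPKM over the total libraries), whereas TWIST1 was at or near 0 (at most 0.0765). The leukocyte marker PTPRC was at 0.228 to 1.22, and of the epithelial markers CDH1 was at 0.267 to 1.67 and EPCAM at 2.96 to 6.87. The 13 mitochondrial mRNAs took 0.774% to 2.42% of all FPKM in 8 of the nuclear libraries, 26.5% to 37.9% in the cytoplasmic/ER and 15.8% to 24.7% in 8 of the total libraries. The remaining libraries go against their labels: the library labelled control nuclear replicate 2 had 21.8% and was closest to the total libraries (r = 0.977, against 0.944 to the nuclear), and the library labelled control total replicate 2 had 0.738% and was closest to the nuclear libraries (r = 0.973, against 0.940 to the total). The labels were kept, and the comparisons between fractions and between shRNAs are given with and without that culture. One FPKM was worth 31.5 to 87 reads per kilobase, so the lowest value of either RNA (MALAT1 in the cytoplasmic/ER library of TPR A replicate 2) still rested on 80.3 reads per kilobase.

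MALAT1 was highest in total RNA, lower in the nuclear fraction and lowest in the cytoplasmic/ER fraction. In control cells its nuclear level was 22.1, 83.6 and 40.1 FPKM in replicates 1, 2 and 3, its cytoplasmic/ER level 9.27, 9.05 and 9.31, and its total level 82.1, 16.3 and 122. With TPR A, it was at 23.0, 16.3 and 25.8 in the nuclear, 16.1, 2.27 and 7.84 in the cytoplasmic/ER and 71.6, 130.2 and 114 in the total libraries. With TPR D, the same values were 18.96, 20.8 and 39.3, then 11.1, 3.18 and 7.17, then 207, 135 and 137. Within each shRNA no nuclear library was below a cytoplasmic/ER library, and the total libraries were above the nuclear ones except in control, where replicate 2 had the order turned round.

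NEAT1 had the same order of fractions. Its level in control cells was 21.7, 69.7 and 67.1 FPKM in the nuclear libraries, 6.40, 6.69 and 17.9 in the cytoplasmic/ER and 58.1, 23.0 and 143 in the total. With TPR A, it was at 29.4, 31.8 and 28.1, at 11.4, 4.11 and 9.85, and at 76.2, 106 and 109.7 in these fractions. With TPR D, it was at 38.4, 43.2 and 60.6, at 12.5, 7.67 and 8.84, and at 56.8, 150.3 and 113. The nuclear and cytoplasmic/ER libraries did not overlap within any shRNA, and the total libraries of control and of TPR D did overlap the nuclear ones.

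**Figure D1:**
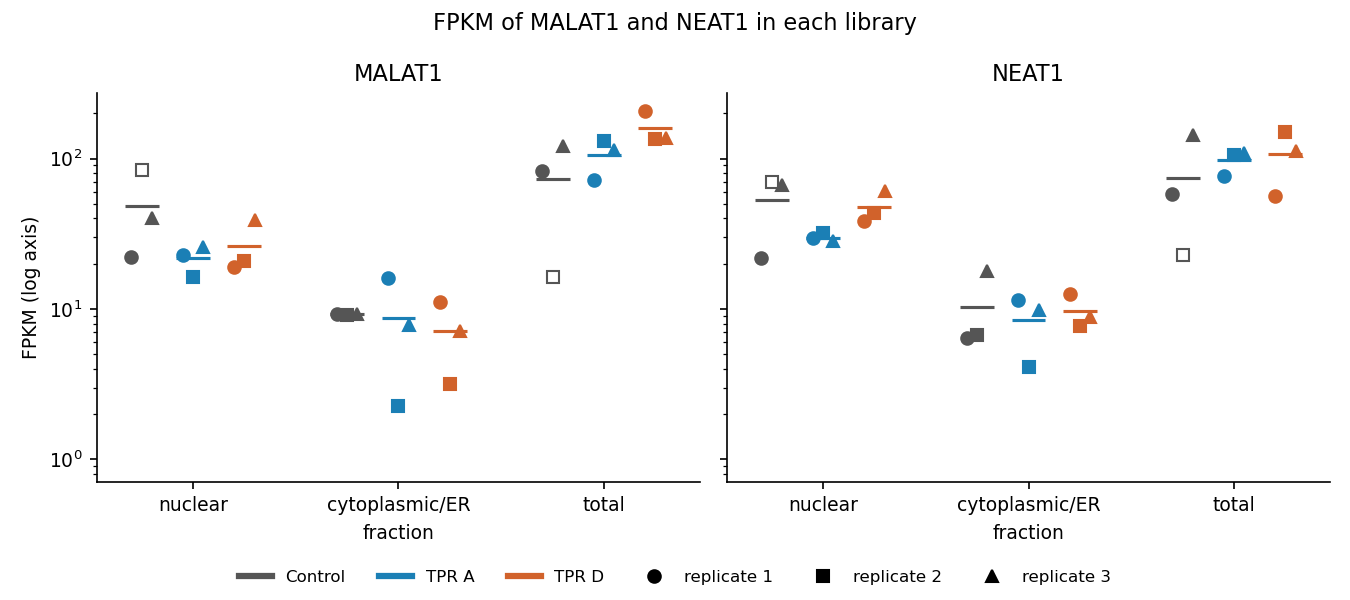
FPKM (log axis) of MALAT1 and NEAT1 in the 27 libraries by labelled fraction, coloured by shRNA, with the replicate as the symbol, the mean of 3 libraries as a line and the libraries labelled control nuclear 2 and control total 2 as open symbols. Cytoplasmic/ER values lie lowest for both RNAs (2.27 to 16.1 for MALAT1, 4.11 to 17.9 for NEAT1). The open symbols are the highest control values of the nuclear and the lowest of the total libraries. For nuclear NEAT1 the open symbol (69.7) lies beside control replicate 3 (67.1), and replicate 1 (21.7) lies apart.

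As group means ± SD (n = 3 each), the order of MALAT1 was TPR D total (159.7 ± 40.8 FPKM), TPR A total (105.4 ± 30.3), control total (73.5 ± 53.5), control nuclear (48.6 ± 31.6), TPR D nuclear (26.4 ± 11.2), TPR A nuclear (21.7 ± 4.88), then control (9.21 ± 0.14), TPR A (8.74 ± 6.96) and TPR D (7.14 ± 3.94) cytoplasmic/ER. Neighbours in this order overlapped in range except TPR D total with TPR A total, and TPR A nuclear with control cytoplasmic/ER. For NEAT1 the order was TPR D total (107 ± 47.1), TPR A total (97.4 ± 18.4), control total (74.8 ± 61.8), control nuclear (52.8 ± 27.02), TPR D nuclear (47.4 ± 11.7), TPR A nuclear (29.8 ± 1.88), then control (10.3 ± 6.58), TPR D (9.67 ± 2.53) and TPR A (8.47 ± 3.86) cytoplasmic/ER. There, neighbours overlapped in range except TPR D nuclear with TPR A nuclear, and TPR A nuclear with control cytoplasmic/ER. The means of MALAT1 kept their order without control replicate 2, with control total at 102 and control nuclear at 31.1 (n = 2 each). Those of NEAT1 did not: control total, at 100.7, came before TPR A total, and control nuclear, at 44.4, came after TPR D nuclear. With 3 libraries against 3, an exact permutation test cannot go below 0.1, so neighbours were not tested.

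Neither RNA was among the very highest lncRNAs in these poly(A)+ libraries. By mean FPKM, MALAT1 ranked 57 of 1689 lncRNA genes in the nuclear fraction, 337 in the cytoplasmic/ER fraction and 18 in total RNA, and NEAT1 ranked 43, 295 and 27. The ranks without control replicate 2 were 82, 335 and 18 for MALAT1 and 44, 290 and 24 for NEAT1. Both varied more between replicates than most genes: the SD within groups was 0.89 (log2) for MALAT1 and 0.75 for NEAT1, above that of 99.1% and 98.0% of the 3372 genes with a mean of 25 to 100 FPKM, whose median SD was 0.33. Without the culture of control replicate 2 the SDs were 0.72 and 0.65, still above 98.5% and 97.8% of those genes.

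The first comparison asks how far each RNA was nuclear. Over the 3 shRNAs, MALAT1 was 3.88-fold higher in the nuclear than in the cytoplasmic/ER fraction (log2 difference 1.96, SE 0.38, adjusted p = 0.00013) and NEAT1 4.61-fold (2.20, SE 0.32, adjusted p = 4.4e-06). The adjusted p is that of limma over all genes, and a difference is called below 0.05; 59.2% of all genes tested were called for these fractions, in either direction, so the call itself sets no gene apart, whereas the size of the difference was above that of 98.1% of genes for MALAT1 and 98.9% for NEAT1. All 9 cultures had a nuclear over cytoplasmic/ER ratio (N/C) above 1 for both RNAs, and the exact sign-flip test over cultures gave p = 0.00391 for each, the smallest that 9 cultures allow (0.0107 after adjustment over the 11 tests of this family). The log2 differences without control replicate 2 were 1.79 (SE 0.33, adjusted p = 0.000128) and 2.03 (SE 0.30, adjusted p = 1.14e-05). These values are levels scaled to the typical gene of each library, not copies per cell. Fewer molecules in a fraction and more of other RNA there cannot be told apart.

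By culture, the N/C ratio of MALAT1 was 2.42, 9.45 and 4.37 in control replicates 1 to 3, 1.43, 6.97 and 3.27 with TPR A, and 1.72, 6.43 and 5.59 with TPR D. For NEAT1 it was 3.42, 10.6 and 3.81 in control, 2.58, 7.67 and 2.84 with TPR A, and 3.07, 5.61 and 7.01 with TPR D. For both RNAs the lowest ratio of each shRNA was that of replicate 1 as labelled, whose libraries carry names of another style than those of replicates 2 and 3. In control this rests on the nuclear library of replicate 2: the library labelled total of that culture, which was closest to the nuclear libraries, was at 1.76 times the cytoplasmic/ER level for MALAT1 and 3.34 times for NEAT1, below the N/C of replicate 1. Within replicate 1, the mean log2 N/C was 0.86 for MALAT1 and 1.59 for NEAT1 (3 cultures), and within replicates 2 and 3 it was 2.51 for both (6 cultures, exact sign-flip p = 0.0312, the smallest possible). The labels do not say what the naming stands for, and its part in the result was not tested.

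**Figure D2:**
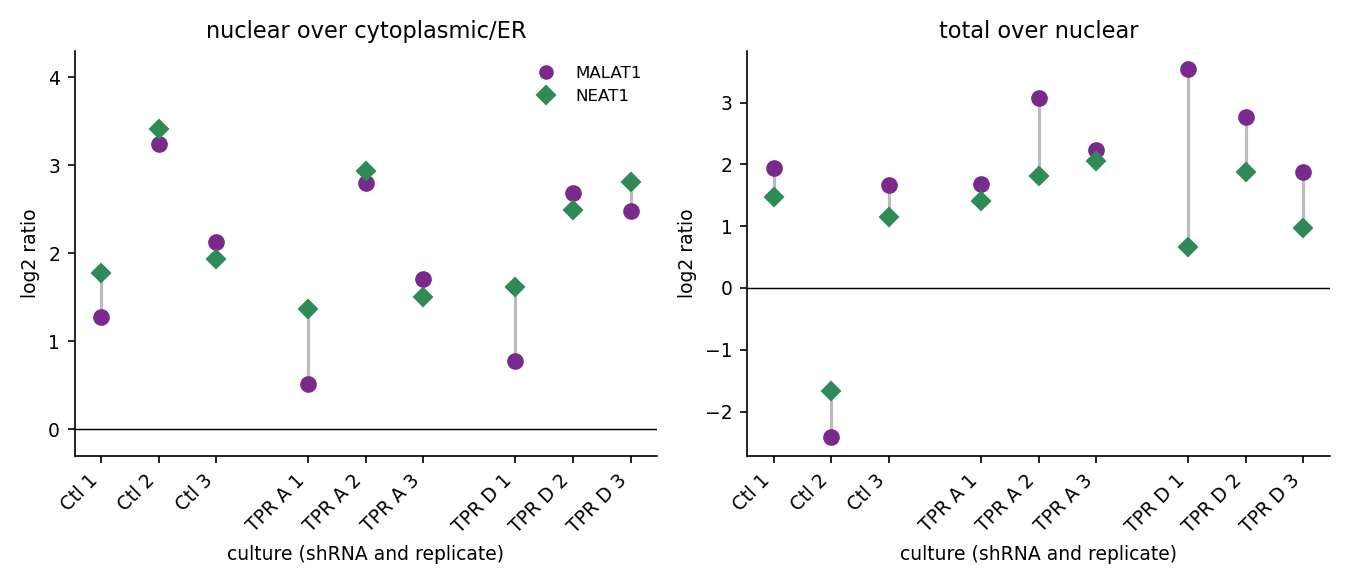
Log2 ratio of the nuclear over the cytoplasmic/ER level (left) and of the total over the nuclear level (right) in each of the 9 cultures, circles for MALAT1 and diamonds for NEAT1, joined within a culture. All N/C ratios lie above 0, between 0.52 and 3.41, and only control replicate 2 lies below 0 in the right panel.

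In each shRNA by itself, the nuclear minus cytoplasmic/ER difference of MALAT1 was 2.21 (log2, SE 0.66, adjusted p = 0.0105) in control, where 39.4% of all genes were called, 1.68 (adjusted p = 0.0593) with TPR A, where 28.4% were called, and 1.98 (adjusted p = 0.0248) with TPR D, where 31.7% were called. The TPR A value of MALAT1 was not called, whereas a fit that blocks on replicate number gave it an adjusted p of 0.0428. For NEAT1 the same differences were 2.37, 1.94 and 2.31 (SE 0.56 each, adjusted p = 0.00201, 0.0123 and 0.00324). Without control replicate 2 the control values were 1.70 for MALAT1 (adjusted p = 0.0539) and 1.85 for NEAT1 (adjusted p = 0.0236).

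The second comparison sets total RNA against the fractions made from the same cells. Over the 3 shRNAs, total RNA held 3.52-fold more MALAT1 than the nuclear fraction (log2 difference 1.82, SE 0.38, adjusted p = 0.00915) and 2.12-fold more NEAT1 (1.08, SE 0.32, adjusted p = 0.0248), where 22.1% of all genes tested were called. Against the cytoplasmic/ER fraction the total was 13.7-fold higher for MALAT1 (3.77, adjusted p = 3.86e-08) and 9.75-fold for NEAT1 (3.29, adjusted p = 2.76e-08), where 63.3% of genes were called, and without control replicate 2 these differences were 4.07 and 3.44. The total over nuclear ratio (T/N) of MALAT1 was 3.84, 0.187 and 3.16 in control replicates 1 to 3, 3.20, 8.38 and 4.71 with TPR A, and 11.6, 6.83 and 3.66 with TPR D. That of NEAT1 was 2.77, 0.315 and 2.22, then 2.66, 3.52 and 4.15, then 1.58, 3.66 and 1.96. The ratio was above 1 in 8 of 9 cultures for each, the exception being control replicate 2 in both. Within a single shRNA, the total minus nuclear difference was called for neither RNA. For MALAT1 it was 0.39 in control, 2.33 with TPR A and 2.73 with TPR D (limma adjusted p = 0.9999, 0.156 and 0.11). For NEAT1 it was 0.32, 1.76 and 1.17 (limma adjusted p = 0.9999, 0.156 and 0.211). Of all genes, 0%, 0% and 0.00684% were called.

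Total RNA is the input of both fractions. Of all genes tested, 30.8% had a mean total level above both fractions, and 44.9% of lncRNA genes did, but few by as much as these: 0.849% of genes exceeded the higher fraction by more than 1 on the log2 scale, and 15 of 14611 genes did so by more than MALAT1 and 93 by more than NEAT1. Without control replicate 2, the total minus nuclear difference was 2.28 for MALAT1 (adjusted p = 5.43e-05) and 1.41 for NEAT1 (adjusted p = 0.00114), and 9 and 82 genes lay above them. The exact sign-flip test over 9 cultures gave p = 0.0273 for MALAT1 and 0.0312 for NEAT1 (adjusted p = 0.0491 for both), and p = 0.00781 for each over 8 cultures without control replicate 2, the smallest possible. The limma call was lost for MALAT1 without control replicate 1 (adjusted p = 0.0939), control replicate 3 (0.0794) or TPR A replicate 3 (0.0552), and for NEAT1 without any 1 of control replicates 1 (0.136) and 3 (0.0911), TPR A replicates 2 (0.063) and 3 (0.0879) and TPR D replicates 2 (0.0759) and 3 (0.0594). Within replicate 1 the mean log2 T/N was 2.39 for MALAT1 and 1.18 for NEAT1, and within replicates 2 and 3 it was 1.53 and 1.03 (exact sign-flip p = 0.156 and 0.125).

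**Figure D3:**
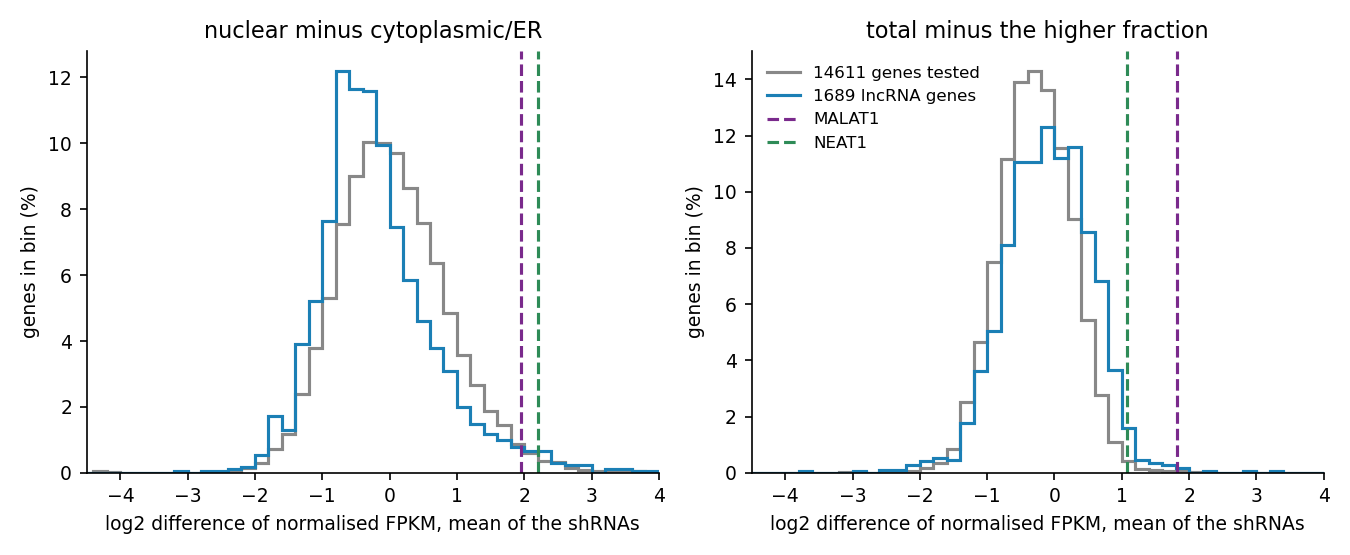
Share of genes (percent per bin of 0.2) by log2 nuclear minus cytoplasmic/ER difference (left) and by log2 total minus the higher of the nuclear and cytoplasmic/ER levels (right), for the 14611 genes tested and the 1689 lncRNA genes among them, with MALAT1 and NEAT1 as dashed lines. MALAT1 (1.96 left, 1.82 right) and NEAT1 (2.20 left, 1.08 right) lie in the upper tail of both plots.

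The third comparison asks whether TPR depletion moved either RNA. In the nuclear fraction, the mean of both TPR shRNAs minus control was -0.86 for MALAT1 (95% interval -2.04 to 0.32, adjusted p = 0.594) and -0.32 for NEAT1 (-1.32 to 0.68, adjusted p = 0.831), where 0.808% of genes were called. In the cytoplasmic/ER fraction the differences were -0.47 (-1.65 to 0.71, adjusted p = 0.839) and -0.07 (-1.07 to 0.93, adjusted p = 0.981), where 0.643% of genes were called. In total RNA they were 1.28 (0.10 to 2.46, unadjusted p = 0.0351, limma adjusted p = 0.269) and 0.83 (-0.17 to 1.83, adjusted p = 0.401), where 1.14% of genes were called. With TPR D by itself, total MALAT1 was 3.01-fold the control level (1.59, SE 0.66, adjusted p = 0.27; 0.753% of genes called). Neither RNA was called in any fraction, and the intervals still allow changes of 2-fold and more in each fraction.

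The total values rest on control replicate 2. Without it, the total difference was 0.37 (SE 0.53) for MALAT1 and 0.13 (SE 0.48) for NEAT1, and the nuclear difference was -0.35 (SE 0.53) and -0.02 (SE 0.48). The total difference of MALAT1 with TPR D by itself fell from 1.59 to 0.69 without that culture. Exact permutation tests by culture, 3 control against 6 depleted (84 splits), gave p = 0.0952 for nuclear and 0.0714 for total MALAT1, and p = 0.476 and 0.214 for NEAT1, with adjusted values of 0.48 or more over 11 tests. Without control replicate 2 (28 splits) the p of total MALAT1 was 0.393. Within replicates 2 and 3, which include that culture, total MALAT1 differed by 1.60 (exact permutation p = 0.133, 15 splits), and within replicate 1 by 0.62 (1 control culture, no test).

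**Figure D4:**
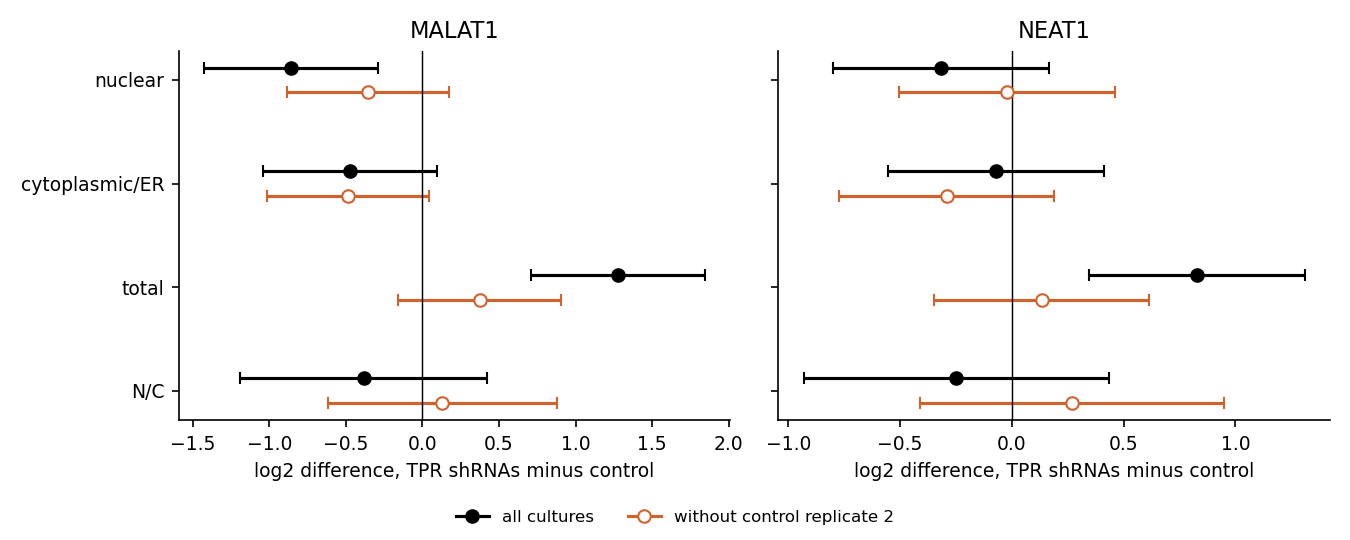
Log2 difference of the mean of TPR A and TPR D from control (± SE of the limma fit) for the level in each fraction and for the N/C ratio, with all 9 cultures (filled) and without control replicate 2 (open). Total MALAT1 falls from 1.28 to 0.37 and total NEAT1 from 0.83 to 0.13 when that culture is left out, and the N/C difference changes sign for both.

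The N/C ratio is the study's main measure of export, beside the ratios of each fraction to total RNA. Its change with TPR depletion, as log2 N/C of the depleted minus the control cells, was -0.38 for MALAT1 (95% interval -2.05 to 1.28) and -0.25 for NEAT1 (-1.66 to 1.17), with an adjusted p of 0.999 for both. Of all genes tested, limma called 0 (0%) for this change, with 251 at an unadjusted p under 0.05. The mean log2 N/C of MALAT1 was 2.21 ± 0.99 (SD, n = 3) in control, 1.68 ± 1.14 for TPR A and 1.98 ± 1.05 for TPR D, and that of NEAT1 2.37 ± 0.90, 1.94 ± 0.87 and 2.31 ± 0.62, so the shRNAs differed by less than the replicates of any 1 of them. Without control replicate 2 the change was 0.13 (SE 0.75) for MALAT1 and 0.27 (SE 0.68) for NEAT1, that is, in the other direction. TPR A and TPR D differed in their N/C change by -0.30 (SE 0.93) for MALAT1 and -0.37 (SE 0.79) for NEAT1, neither called.

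For the nuclear over total ratio the differences were larger. The log2 ratio of depleted minus control cells was -2.13 ( 95% interval -3.80 to -0.47, unadjusted p = 0.0145, limma adjusted p = 0.804) for MALAT1 and -1.15 (-2.56 to 0.27, adjusted p = 0.804) for NEAT1, where limma called 0 genes (0%) and 409 had an unadjusted p under 0.05. Both libraries that go against their labels enter this ratio. Without that culture the differences were -0.73 (SE 0.75) and -0.15 (SE 0.68).

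MALAT1 and NEAT1 can also be set against each other within a library, where the scaling factor of the library cancels. FPKM still depends on the transcript lengths used and on how far poly(A) selection captured each RNA. A level ratio other than 1 therefore does not say which RNA had more molecules. In the nuclear fraction MALAT1 was at 0.483 to 1.20 times NEAT1 by culture, and the mean log2 difference was -0.51 (exact sign-flip p = 0.0234, adjusted p = 0.0491), below 0 in 7 of 9 cultures, and -0.61 without control replicate 2 (exact sign-flip p = 0.0156, adjusted p = 0.0215). In the cytoplasmic/ER fraction it was -0.26 (p = 0.27, exact sign-flip) and in total RNA 0.23 (p = 0.43, exact sign-flip). Total RNA of TPR D replicate 1 stood out, with MALAT1 at 3.64 times NEAT1, against 0.71 to 1.41 in the other 8 cultures. The N/C ratios of the RNAs differed by -0.25 (log2, exact sign-flip p = 0.129). The T/N ratio of MALAT1 was higher than that of NEAT1 by 0.73, in 8 of 9 cultures (exact sign-flip p = 0.0391, adjusted p = 0.0537), and by 0.92 without control replicate 2 (p = 0.00781, exact, adjusted p = 0.0123). TPR depletion changed the difference between the RNAs by -0.54 in the nuclear, -0.40 in the cytoplasmic/ER and 0.45 in the total libraries, none past the exact permutation test (p = 0.131, 0.405 and 0.452).

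Within a fraction the levels of the RNAs rose and fell together across cultures to some extent. Over 9 cultures Pearson's r was 0.76 in the nuclear (exact permutation p = 0.0131, adjusted over 3 fractions 0.0392), 0.66 in the cytoplasmic/ER (p = 0.0516, exact) and 0.78 in the total libraries (p = 0.0394, exact, adjusted 0.0516). Spearman's rho was 0.53, 0.67 and 0.5 (exact permutation p = 0.148, 0.0589 and 0.178). These permutations exchange all 9 cultures freely, so differences between shRNAs or replicate numbers can enter the coefficients and their p-values. Without the 2 cultures farthest from the median of MALAT1, r was 0.53, 0.32 and 0.85. Without control replicate 2, r was 0.70, 0.72 and 0.16. The 2 cultures left out for the 0.85 in total RNA were control replicate 2 and TPR D replicate 1, so the coefficient there depended on which of these entered.

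Over all 27 libraries, the genes whose log2 level was most like that of MALAT1 were CREBZF, a bZIP transcription regulator (Pearson r = 0.976), the lncRNAs ENSG00000270055 (0.974) and MIR222HG, the host of miR-221 and miR-222 (0.971), the histone H2A deubiquitinase MYSM1 (0.969) and FSIP2, a sperm fibrous sheath protein (0.965). Those most like NEAT1 were the zinc finger gene ZNF587 (0.975), POTEG (0.972), CCDC144NL (0.968), ENSG00000178206 (0.967) and the sulfotransferase SULT1B1 (0.966). These have mean levels of 1.17 to 9.36 FPKM, far below those of MALAT1 (51.2) and NEAT1 (48.6). NEAT1 ranked 67 in likeness to MALAT1 (r = 0.931) and MALAT1 ranked 74 in likeness to NEAT1. The libraries share fractions, so these coefficients carry no test, and POTEG and CCDC144NL have near-identical relatives among which reads can be split.

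Genes for proteins of the same bodies were then counted, with the share of all genes beside them. The values are those of their mRNAs and do not give the place of the proteins. Of 25 paraspeckle protein genes, 24 were tested (TAF15 was not matched), and 13 were higher and 3 lower in the nuclear than in the cytoplasmic/ER fraction, with a median log2 difference of 0.48, against -0.01 over all genes and -0.29 over lncRNA genes, and without control replicate 2 the counts were 15 and 3. The called genes were 66.7% of the list, against 59.2% of all genes, and those higher 54.2%, against 30% of all genes. The mRNAs of the core paraspeckle proteins of the DBHS family were among those higher: SFPQ by 1.38 (SE 0.15), PSPC1 by 1.07 (SE 0.13) and NONO by 0.65 (SE 0.16). The mRNA of MATR3, a nuclear matrix protein, was higher by 1.69 and that of HNRNPR, an hnRNP protein, by 1.13. With TPR depletion, 0.808% of all genes were called in the nuclear, 0.643% in the cytoplasmic/ER and 1.14% in the total libraries, and 0% for N/C. Of the 24, 0 were called in the nuclear or cytoplasmic/ER fraction or for N/C, which at these shares does not set the list apart. In total RNA 1 fell, HNRNPA1, an hnRNP protein involved in splicing, by 0.67 on the log2 scale (limma adjusted p = 0.0409). That call was lost without control replicate 2 (-0.43, adjusted p = 0.347) and without any 1 of the other cultures except control replicate 3, and also with no minimum level (adjusted p = 0.0811) and with a minimum of 5 FPKM (0.0577).

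Of the 23 nuclear speckle protein genes, all tested, 15 were higher and 1 lower in the nuclear fraction (16 and 1 without control replicate 2), with a median of 0.68. That is 69.6% of the list called, against 59.2% of all genes, and 65.2% higher, against 30%. The mRNAs of SON and SRRM2, whose proteins form the core of speckles, were higher by 1.47 (SE 0.13) and 1.32 (SE 0.18). Those of the splicing-associated RBM25, PNN and BCLAF1 were higher by 1.69, 1.78 and 1.90. None was called for TPR depletion in any fraction or for N/C. Of all genes, 0.808% (nuclear), 0.643% (cytoplasmic/ER), 1.14% (total) and 0% (N/C) were called, so this does not set the list apart. Of the 12 genes for the making and shielding of the 3' ends, 2 were higher in the nuclear fraction, the RNase P subunit POP1 (1.19) and the tRNA 3' end nuclease ELAC2 (0.62), and 3 were lower, the RNase P subunits RPP21 (-0.89), POP7 (-0.89) and POP5 (-0.51). These 5 are 41.7% of the list, below the 59.2% of all genes. METTL16, which binds the MALAT1 triple helix, differed by 0.21 and was not called. No gene of this list was called for TPR depletion, which at the same low shares of all genes does not set it apart either.

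**Figure D5:**
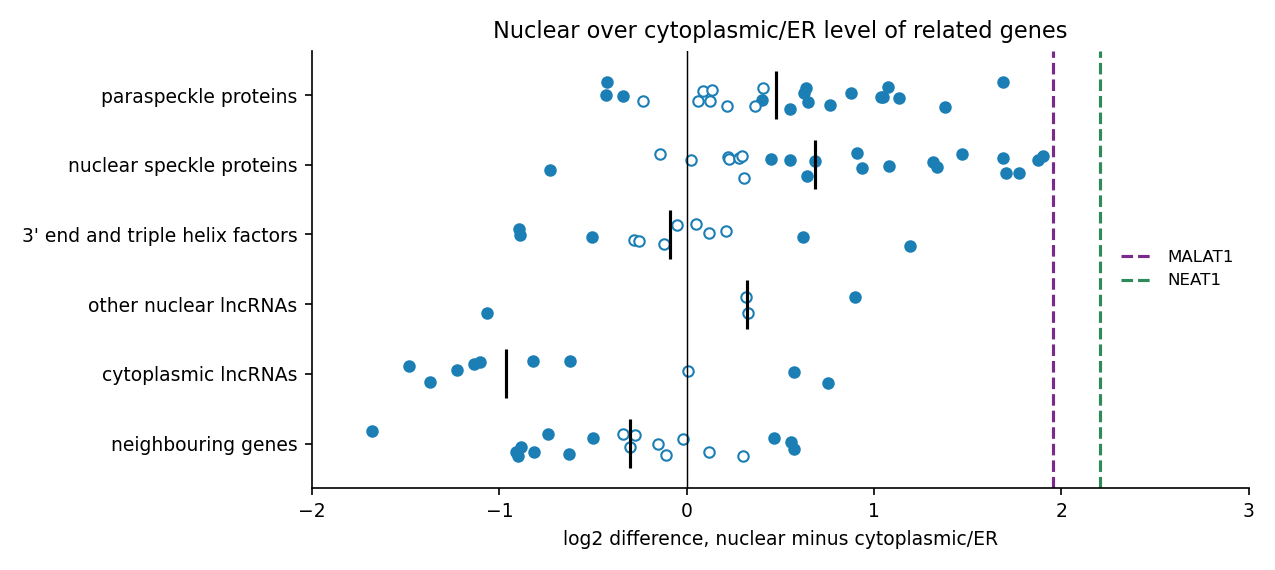
Log2 nuclear minus cytoplasmic/ER difference of single genes in each list (filled where limma called the gene, open where not; black bar, median; vertical scatter within a list has no meaning), with MALAT1 (1.96) and NEAT1 (2.20) as dashed lines. No gene of these lists lies above either dashed line, and the cytoplasmic lncRNAs have the lowest median, -0.96.

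Other lncRNAs gave the range of the same measure. Of 10 lncRNAs described as nuclear elsewhere, 4 passed the minimum level: TUG1 was higher in the nuclear fraction (0.90, SE 0.26, adjusted p = 0.00556), PVT1 was lower (-1.06, SE 0.15, adjusted p = 3.93e-06), and HOTAIR (0.33) and LINC-PINT (0.31) were not called. Of 10 lncRNAs described as cytoplasmic or as snoRNA hosts, all tested, 7 were lower in the nuclear fraction and 2 higher (NORAD, a decoy of Pumilio proteins, by 0.57 and the snoRNA host SNHG1 by 0.75), the lowest being H19, an imprinted lncRNA, at -1.48, with a median of -0.96. Those lower were 70% of the list, against 29.2% of all genes. MALAT1 and NEAT1 had larger nuclear differences than any of these 14 lncRNAs, and were above 97.3% and 98.1% of the 1689 lncRNA genes. None of the 14 was called for TPR depletion in any fraction. Of all genes, 0.808% (nuclear), 0.643% (cytoplasmic/ER) and 1.14% (total) were called, so this does not set them apart. The N/C change of NORAD was -0.16 (SE 0.43), which leaves room for a change in either direction. By single-molecule FISH, an unlike measure, the study found NORAD mainly in the cytoplasm of control cells. It reported a rise in the nucleus on TPR depletion, reversed by re-expressing TPR.

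The genes around them on the chromosome were counted in the same way. Within 250 kb of either gene the annotation has 50 genes, of which 27 were in the table and 19 passed the minimum. Of the 19, 3 were higher and 8 lower in the nuclear fraction, with a median of -0.30. The called share, 57.9%, is near the 59.2% of all genes. The 4 with the lowest adjusted p were FAM89B (-1.68), MAP3K11, a kinase of the JNK pathway (-0.82), RNASEH2C, a subunit of ribonuclease H2 (-0.88), and RELA, the p65 subunit of NF-kB (-0.90). None of the 19 was called for TPR depletion in any fraction or for N/C. With 0.808% (nuclear), 0.643% (cytoplasmic/ER), 1.14% (total) and 0% (N/C) of all genes called, this does not set them apart.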

How the data were processed

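RNA Frac-Seq of 27 libraries was used. The authors mapped poly(A)+ reads with Salmon to Gencode release 19 (hg19) transcripts, coding and lncRNA, and summed them per gene with tximport, and the deposited unit is FPKM. Each library was divided by its median-of-ratios factor (0.954 to 1.06) and log2(FPKM + 0.1), which understates changes of low genes, was fitted in limma 3.58.1 (R 4.3.3), with trend, in 9 groups and no replicate block, for genes with a mean FPKM above 1 outside the mitochondrial genome. P-values were Benjamini-Hochberg adjusted over the 14611 genes. FPKM per library in the text are as deposited, and ratios by culture are on the scaled values. Single values were tested by 2-sided exact permutation or sign-flip tests over the 9 cultures (11 tests in each family). The scripts were tested on simulated data.

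The members, lists and named genes were chosen with earlier results of these data known. By rule the text names the members, TPR, the 5 genes most like each member, at most 4 called genes a list by adjusted p, SFPQ, NONO, PSPC1, SON, SRRM2, and the lncRNAs with the lowest and highest N/C, and 1 further gene under the rule is not reported here. METTL16, HOTAIR, LINC-PINT, NORAD and ELAC2 were named after their values were seen, as was the range of 25 to 100 FPKM. Reads were estimated from the steps of low FPKM (with 240 bases taken off a gene's length, 90.5% of 37996 low values were whole within 0.1 of a read). The labels do not say whether replicates were separate cultures, and p-values measure the spread between these samples. Libraries of 1 shRNA and replicate number were taken as 1 culture. Among same-numbered libraries of different shRNAs, deviations from the group means correlated above 0.1 in every pair for control with TPR A in total RNA and for TPR A with TPR D in nuclear and cytoplasmic/ER RNA, and not in the remaining 6 combinations. Alternatives were FPKM without scaling, pseudocounts of 1 and 0.01, no minimum, a minimum of 5 FPKM, a block for replicate number or culture, limma without trend, control with 1 TPR shRNA only, and each culture left out. Values within replicate sets, and correlations, group order, list counts and the place of total RNA without control replicate 2, were added after seeing the data.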

Additional observations from a re-analysis of the deposited data

How the results depend on the processing

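Outside the settings that leave out a culture, 457 of 462 values from limma and all 66 exact tests kept their direction and their side of the threshold. The exceptions were the nuclear minus cytoplasmic/ER difference of MALAT1 with TPR A, called with a block for replicate number (adjusted p = 0.0428) and with a minimum of 5 FPKM (0.0491), that with TPR D, not called with no minimum (0.056), and the nuclear difference of NEAT1 with TPR D, which was 0.0037 and turned to -0.00329 without scaling and -0.000655 with a pseudocount of 1. The block, which pairs equal replicate numbers, left the TPR effect uncalled (total MALAT1, adjusted p = 0.179, total NEAT1, 0.283), while genes called for it went from 118 to 318 in nuclear, 94 to 347 in cytoplasmic/ER and 166 to 560 in total RNA, and from 110 to 461 for TPR D in total RNA. A minimum of 5 FPKM gave 66, 48 and 82. Without scaling, genes called in total RNA were 77 higher and 75 lower, against 113 and 53, and those for total minus nuclear 1124 and 2167, against 1484 and 1751.

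When 1 culture at a time was left out, 459 of 504 values from limma and 169 of 198 exact tests kept their direction and their side of the threshold. Of the limma values, 26 changed direction, 14 lost their call and 5 gained one. Of the exact tests, 4 changed direction, 24 lost their call and 1 gained one. The total minus nuclear difference ranged from 1.56 to 2.28 for MALAT1 and from 0.89 to 1.41 for NEAT1 (by culture, 1.60 to 2.35 and 0.96 to 1.42, and 0.47 to 0.92 for MALAT1 less NEAT1), and in control from -0.38 to 1.80 and from -0.26 to 1.31. Genes called for it fell from 3235 to 4, 6 and 10 on leaving out control replicate 1, control replicate 3 or TPR A replicate 3, and rose to 6312 on leaving out control replicate 2. The cause was not tested. The N/C change with both shRNAs ranged from -0.85 to 0.13 for MALAT1 and -0.55 to 0.27 for NEAT1, with TPR A from -1.10 to 0.043 and -0.93 to 0.085, with TPR D from -0.70 to 0.37 and -0.36 to 0.45, and between the shRNAs for MALAT1 from -0.91 to 0.27. The N/T change of NEAT1 with TPR D ranged from -1.43 to 0.14. In the cytoplasmic/ER fraction the difference from control ranged from -1.08 to 0.32 for MALAT1 with TPR A, and for NEAT1 from -0.50 to 0.28 with TPR A, -0.20 to 0.55 with TPR D and -0.34 to 0.42 with both. That of nuclear NEAT1 with TPR D ranged from -0.56 to 0.30. With 3 cultures per shRNA and wide spread, changes of either RNA below about the width of the intervals given were not detectable.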
